A study of Mus musculus with 16 samples.

Results

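The interferon regulatory factors are transcription factors that share a DNA-binding domain. Of these, 8 genes were followed on the arrays, namely Irf1, Irf2, Irf3, Irf4, Irf5, Irf7, Irf8 and Irf9, chosen by name as every probe other than a control that carries 1 of these symbols. They are 8 of 34779 gene names and make up 9 of the 55681 probes, since Irf1 has 2 probes and every other member has 1. Their mRNA was measured with 1-colour Agilent arrays. All samples were of the mouse line RAW264.7, which grew out of a virus-induced tumour and behaves like macrophages. Cells were pretreated for 60 min either with 20 µM cordycepin (3'-deoxyadenosine, which ends the growth of poly(A) tails) or with its vehicle DMSO, and were then left without or stimulated with LPS at 1 µg/ml for 60 min, 120 min in all. The 4 conditions are called DMSO, cordycepin, LPS+DMSO and LPS+cordycepin. Each has 4 biological replicates, and a replicate number stands for 1 day on which the 4 conditions were wells of the same plate, which gives 16 arrays.

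LPS engages Toll-like receptor 4, whose adaptor TRIF leads to phosphorylation of IRF3 and to transcription of the interferon beta gene. Secreted interferon then acts through its receptor and through a complex with STAT2 and IRF9 that binds the interferon-stimulated response element (ISRE). IRF7 is itself made in response to interferon and amplifies the production of interferon alpha. IRF1 is made rapidly through NF-kB and through gamma-activated sites, whereas IRF2 opposes it at shared sites. IRF5 takes part in cytokine induction by Toll-like receptors, IRF8 is a factor of the macrophage lineage that works with PU.1, and IRF4 acts in lymphocytes and alternatively activated macrophages. IRF3 and IRF5 are regulated mainly as proteins, which these arrays do not measure.

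The promoters of the members differ in the motifs through which inflammatory signals act, and the windows that hold such a motif are shown because the LPS changes of the members are described further on. Sequences come from RefSeq on GRCm38.p6, 250 bases before each annotated start site, and all 8 members matched, with 11 windows. Each window was searched on both strands for the ISRE core (GAAA and GAAA with any 2 bases between them), for the gamma-activated site TTCNNNGAA and for the NF-kB consensus. Of all 32851 windows of this length, 2.98% hold the first, 7.02% the second and 7.25% the third. Matches are in capitals, none overlaps another, and a match is a description of letters only. Irf1 at chr11:53769764-53770013 on the plus strand has a gamma-activated site whose first base is 90 bases before the start and an NF-kB match at 13 bases. Irf2 at chr8:46739495-46739744 on the plus strand has an ISRE core at 241 bases, a gamma-activated site at 224 bases and an NF-kB match at 17 bases. Irf8 at chr8:120736108-120736357 on the plus strand has gamma-activated sites at 171 and 153 bases. These 3 windows run as follows.
Irf1: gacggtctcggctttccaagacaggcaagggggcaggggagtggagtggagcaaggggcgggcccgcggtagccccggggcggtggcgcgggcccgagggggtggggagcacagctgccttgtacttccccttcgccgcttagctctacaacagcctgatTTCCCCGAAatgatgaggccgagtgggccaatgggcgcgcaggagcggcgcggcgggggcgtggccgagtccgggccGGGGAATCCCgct
Irf2: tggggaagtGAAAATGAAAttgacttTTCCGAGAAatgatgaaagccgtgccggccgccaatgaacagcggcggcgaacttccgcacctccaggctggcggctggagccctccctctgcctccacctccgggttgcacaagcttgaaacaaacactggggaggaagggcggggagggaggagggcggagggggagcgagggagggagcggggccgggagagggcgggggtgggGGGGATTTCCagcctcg
Irf8: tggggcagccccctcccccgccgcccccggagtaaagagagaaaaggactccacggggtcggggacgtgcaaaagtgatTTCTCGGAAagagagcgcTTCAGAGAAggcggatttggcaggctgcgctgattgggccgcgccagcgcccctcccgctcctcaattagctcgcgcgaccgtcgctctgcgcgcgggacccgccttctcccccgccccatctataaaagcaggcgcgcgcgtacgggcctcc
The other 8 windows, which include those of Irf7 and Irf9 and second start sites of Irf1 and Irf8, hold none of these letters.

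Levels are given as log2 of the processed signal after each array was set to a common 75th percentile, and a change is a difference of such levels, so that 1 unit is 2-fold. Levels of different probes are not comparable with each other. Each array had 21999 to 30362 spots (37.1% to 51.2%) that the software called well above background, with 21999 to 26055 on slide 1, which holds replicates 1 and 2 of every condition, and 27151 to 30362 on slide 2, which holds replicates 3 and 4. Macrophage markers fitted the label, as 8 of 9 were well above background on all 16 arrays, while 0 of 5 B cell, 0 of 4 fibroblast and 0 of 4 epithelial markers were. Of the B cell markers, Cd79a, well above background on 12 arrays, reached a mean level of 8.96 in LPS+cordycepin against 5.92 in DMSO. Cd79b, well above background on 9 arrays, reached 6.75 against 4.27, and Ms4a1 was well above background on no array. Of 5 T cell markers 3 (Cd3e, Cd4 and Lck) were well above background on all arrays, as were 3 of 4 plasmacytoid dendritic cell markers. The part of these markers in the values below was not tested. The DMSO array of replicate 2 stands apart in interferon-related genes, and values without it are given for Irf3, Irf7 and several list genes.

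To be tested, a gene had to be well above background throughout the 4 arrays of some condition, which held for 7 of the 8 members, all but Irf4. With all spots used, limma called 0 of the 7 at an adjusted p under 0.05 in each of the 5 comparisons. Of all 15877 genes it called 14.9% for LPS+DMSO against DMSO, 15.8% for cordycepin against DMSO, 19.2% for LPS+cordycepin against LPS+DMSO, 8.15% for LPS+cordycepin against cordycepin and 0.554% for the interaction, the difference between the 2 LPS changes. At an unadjusted p under 0.05 the members passing in these were 0, 2, 1, 0 and 0 of 7, against 26.3%, 27.9%, 28.1%, 17.9% and 7.66% of all genes. By the methods' t-test, before adjustment and without the interaction, they were 1, 2, 0 and 0, against 23.2%, 25.4%, 27.5% and 19.5%. A single dim spot of Irf1 decides this for Irf1, which was called in both LPS comparisons once the spot was left out. Without the spot, the members passing at an unadjusted limma p under 0.05 were 1, 2, 1, 1 and 1 of 7.

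Irf1, the activator made through NF-kB, was raised by LPS once 1 dim spot was left out. Its brighter probe at chr11:53590746-53590805 (mm9, plus strand) had levels of 11.45, 11.81, 11.46 and 11.33 in replicates 1 to 4 of DMSO. In cordycepin they were 11.34, 11.11, 11.28 and 11.27. In LPS+DMSO they were 12.61, 12.79, 12.41 and 12.24, each above every array without LPS. Groups without overlap between LPS+DMSO and DMSO were seen for 18.9% of all genes. In LPS+cordycepin 3 arrays lay at 12.53, 12.68 and 12.87, the last above all of LPS+DMSO, and the array of replicate 3 lay at 5.19. That spot had a processed signal of 37.3, whereas the other 15 arrays had 1869 to 8250.

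The dim spot lies in a dim area of its array. Within 5 rows and 5 columns, itself included, 39 spots were well above background on the other 15 arrays, and 22 of them were more than 2 log2 units below the mean of the other LPS+cordycepin arrays. The median difference of these 39 was -3.08, whereas over the 19941 such spots elsewhere on the array it was 0.04, with 0.171% of them more than 2 units below. Among all genes tested, 48 had 1 array at least 3 units below all others. Of these, 30 were on this array, all between rows 324 and 349 and columns 96 and 102, and the scanner software had marked the local background of all 30, Irf1 included, as an outlier. The Irf1 spot itself was not marked as an outlying spot, so it enters the values of all arrays, and the authors' value table holds it too, at 5.40. Leaving it out was decided after its value was seen, and Irf1 is therefore given with and without it.

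**Figure D1:**
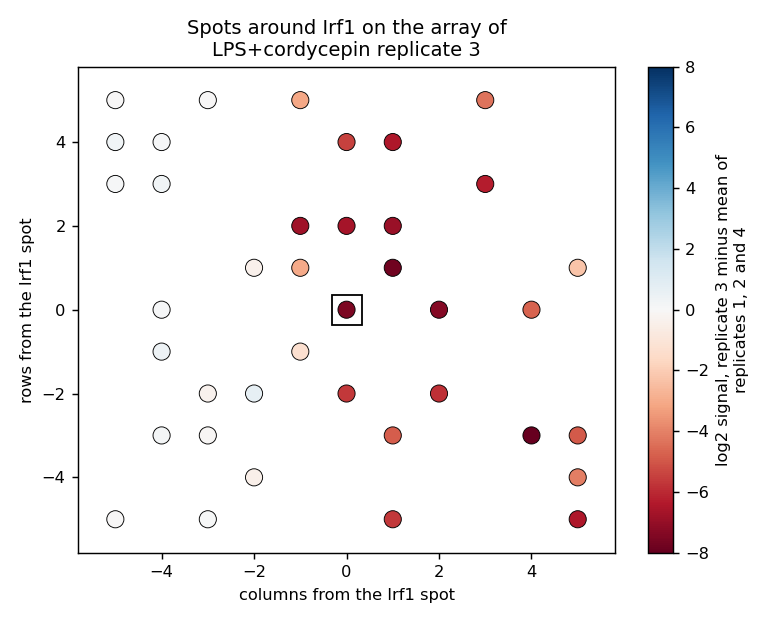
Each point is 1 of 39 spots, placed by its distance in rows and columns from the Irf1 spot (square) on the array of LPS+cordycepin replicate 3, and its colour is the log2 signal there minus the mean of replicates 1, 2 and 4. Dim spots (red), 22 of them below -2, lie above, below and to the right of Irf1, and spots 2 or more columns to its left are near 0.

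Without the spot, LPS raised Irf1 by 1.00 on the log2 scale in DMSO (2.00-fold, SE 0.13, 95% interval 0.72 to 1.28, limma adjusted p = 9.18e-05). Here 1 of 7 members was called, against 14.9% of the 15877 genes tested. The rise was 1.16, 0.99, 0.95 and 0.90 within the 4 days. With all spots the change was the same, but its SE was 1.20 and the adjusted p 0.697, because the fit shares the spread of the 4 conditions. A fit of only the LPS+DMSO and DMSO arrays, which does not contain the spot, gave an SE of 0.15 and an adjusted p of 0.00251.

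In cells with cordycepin, LPS raised Irf1 by 1.44 without the spot (2.72-fold, SE 0.14, 95% interval 1.14 to 1.75, adjusted p = 1.01e-05), and 1 of 7 members was called against 8.16% of genes. On the 3 days with an intact spot the rise was 1.19, 1.57 and 1.60. With all spots the estimate was -0.43 (SE 1.20, adjusted p = 0.919), so the direction turns on the 1 spot. With the replicate number as a block and without the spot, the rise was 1.43 (SE 0.14, adjusted p = 4.12e-05), and with the slide as a block it was 1.42 (adjusted p = 7.63e-06).

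A difference between LPS+cordycepin and LPS+DMSO in Irf1 was not detected. Without the spot LPS+cordycepin stood at 12.69 ± 0.17 (SD, n = 3) and LPS+DMSO at 12.51 ± 0.24 (SD, n = 4), a difference of 0.18 with a 95% interval of -0.13 to 0.48 (adjusted p = 0.487). This interval leaves room for a rise of up to 0.48 and a fall of up to 0.13. Within the days of replicates 1, 2 and 4 the difference was -0.09, -0.11 and 0.63, so its sign rests on replicate 4. Cordycepin alone gave 11.25 ± 0.09 (SD, n = 4) against 11.51 ± 0.20 (SD, n = 4) in DMSO, a change of -0.27 (SE 0.13, adjusted p = 0.211), lower on 4 of 4 days. The LPS rise was larger with cordycepin than without by 0.44 (SE 0.19, 95% interval 0.03 to 0.86), and this interaction was not called (limma adjusted p = 0.604). Its unadjusted limma p was 0.0391, where 7.66% of all genes had one under 0.05. In order of level, LPS+cordycepin and LPS+DMSO did not differ beyond their spread, nor did DMSO and cordycepin, and both LPS conditions stood above both others.

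The other Irf1 probe at chr11:53591817-53591876 (plus strand) lies downstream of the first. Only 1 of 4 cordycepin arrays and 1 of 4 LPS+cordycepin arrays had it well above background, and 0 of 4 in the other conditions. Its levels lay between 2.89 and 6.50, and it was not tested. The genes most like Irf1 over the 15 arrays with an intact spot, among 11601 genes with a symbol and no missing value, were Ppp1r15a (Pearson r = 0.97), Zfp330 (0.96) and Ccrl2 (0.95). These are descriptions, since the arrays share conditions and days.

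**Figure D2:**
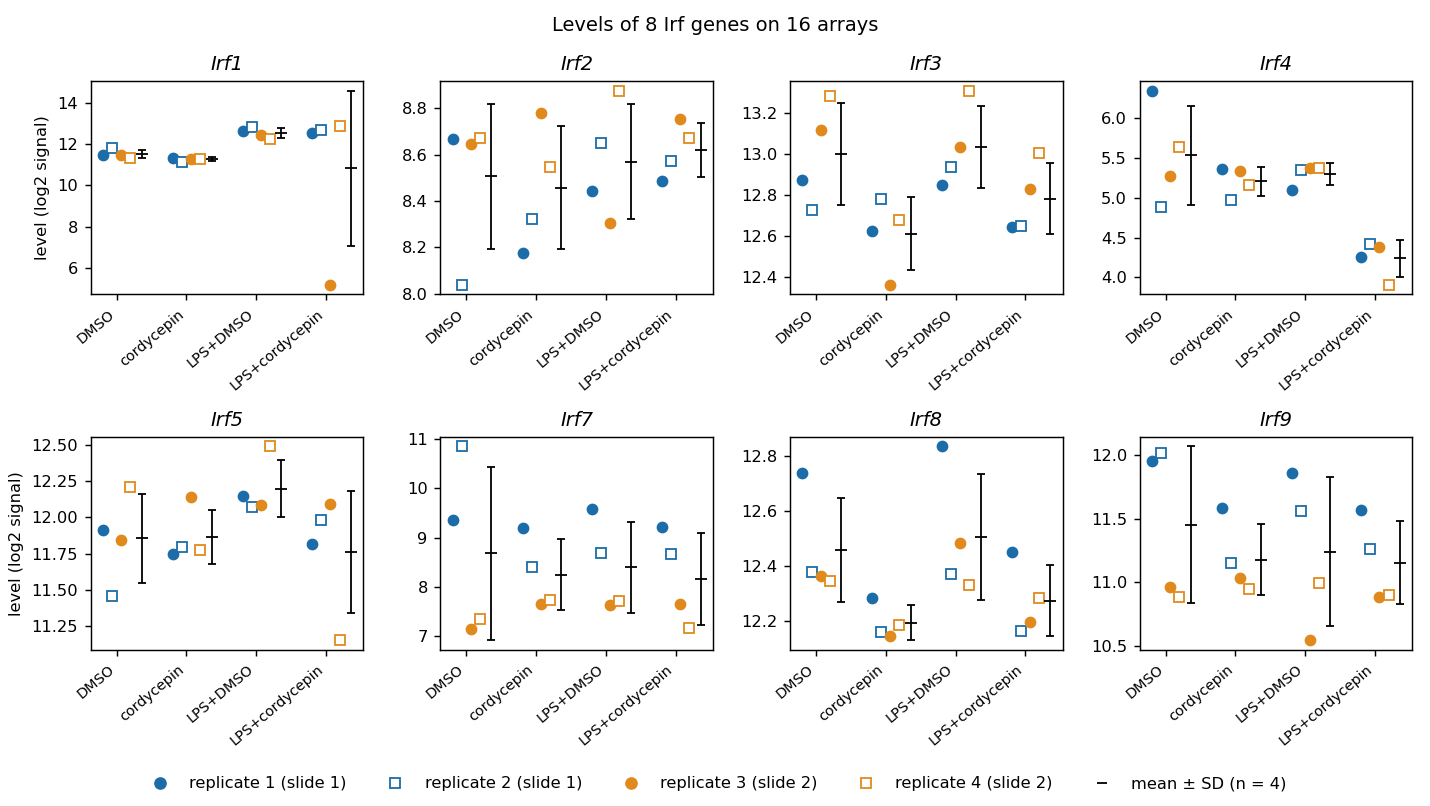
Level (log2 signal) of each member in the 4 conditions, with replicates 1 and 2 on slide 1 in blue and replicates 3 and 4 on slide 2 in orange, beside the mean and SD of all 4 arrays, the dim Irf1 spot included. Irf1 is higher in LPS+DMSO than in either condition without LPS on every array, and Irf7 and Irf9 are higher on slide 1 than on slide 2 in every condition.

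Irf2, the repressor that competes with IRF1, moved little. Its levels (chr8:47932486-47932545) ranged from 8.04 to 8.88 over the 16 arrays, and the 4 condition means lay between 8.46 and 8.62. The largest of its estimates was 0.16 for LPS in cordycepin (SE 0.17, 95% interval -0.19 to 0.52). Groups overlapped in every comparison, and 0 of its p-values were below 0.05.

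Irf3, the factor that TRIF signalling activates, was the member with the lowest p under cordycepin. Its levels at chr7:52257700-52257759 were 12.87, 12.73, 13.12 and 13.28 in DMSO and 12.62, 12.78, 12.36 and 12.68 in cordycepin. The cordycepin value was lower on 3 of 4 days, and the groups overlapped by the pair of replicate 2. The change was -0.39 (1.31-fold lower, SE 0.14, 95% interval -0.69 to -0.09), which was not called (limma adjusted p = 0.0774). With the replicate number as a block it was called (SE 0.12, adjusted p = 0.0331), as it was with the slide as a block (0.0400) and without the DMSO array of replicate 2 (-0.48, adjusted p = 0.0309). Over 42 settings it was not called in 34. Among these were quantile normalization (limma adjusted p = 0.0594), scaling to the median (0.0952) and scaling to spiked-in controls, where the change was -0.33.

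In cells with LPS, cordycepin gave Irf3 levels of 12.64, 12.65, 12.83 and 13.01 against 12.85, 12.94, 13.04 and 13.31 in LPS+DMSO. It was lower on 4 of 4 days by 0.21 to 0.30, a change of -0.25 (SE 0.14, adjusted p = 0.273, and 0.159 with the replicate block). LPS itself moved Irf3 by 0.03 in DMSO (95% interval -0.27 to 0.33) and by 0.17 in cordycepin (95% interval -0.13 to 0.47). In order of mean level came LPS+DMSO (13.03 ± 0.20, SD, n = 4), DMSO, LPS+cordycepin (12.78 ± 0.17) and cordycepin (12.61 ± 0.18), and neighbours in this order overlapped.

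Irf8, the macrophage lineage factor, showed the same order of conditions with smaller differences. Its levels at chr8:123280324-123280383 were 12.74, 12.38, 12.36 and 12.35 in DMSO and 12.29, 12.16, 12.14 and 12.18 in cordycepin. These groups do not overlap, as for 21.2% of all genes in this comparison. The change was -0.26 (1.20-fold lower, SE 0.12, 95% interval -0.52 to -0.01, adjusted p = 0.165), lower on 4 of 4 days. With the replicate block it was called (SE 0.08, adjusted p = 0.0385), and with the slide as a block it was not (0.120). The DMSO array of replicate 1, at 12.74, lay apart from the others (12.35 to 12.38). Over 42 settings, arrays left out included, the change lay between -0.33 and -0.17 and was not called in 39.

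In LPS-stimulated cells Irf8 was again lower with cordycepin on 4 of 4 days, at 12.45, 12.16, 12.20 and 12.28 against 12.84, 12.37, 12.49 and 12.33. The change of -0.23 (SE 0.12) was not called (adjusted p = 0.228, and 0.0597 with the replicate block), and the groups overlapped. LPS moved Irf8 by 0.05 in DMSO (95% interval -0.21 to 0.31) and by 0.08 in cordycepin (95% interval -0.17 to 0.34). For cordycepin against DMSO, limma called 0 of 7 members against 15.8% of genes. Irf3 and Irf8 were the 2 of 7 with an unadjusted p under 0.05, against 27.9% of all genes, so that the members' share is close to the background. The methods' t-test named the same 2 before adjustment, against 25.4% of genes, and 0 of 7 after it.

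Irf5, which takes part in cytokine induction, had its highest mean in LPS+DMSO. Its levels there (chr6:29486901-29486960) were 12.15, 12.07, 12.09 and 12.49, against 11.91, 11.46, 11.84 and 12.21 in DMSO. LPS+DMSO was higher on 4 of 4 days, by 0.34 (SE 0.20, adjusted p = 0.303). With LPS+cordycepin the levels were 11.81, 11.98, 12.09 and 11.15, a difference of -0.44 from LPS+DMSO (SE 0.20, limma adjusted p = 0.154). The difference was -1.34 on the day of replicate 4 and -0.33, -0.09 and 0.01 on the other days. Irf5 was the 1 of 7 members with an unadjusted p under 0.05 between LPS+cordycepin and LPS+DMSO, where 28.1% of all genes had one. After adjustment limma called 0 of 7 members there against 19.2% of genes, and the methods' t-test also called 0.

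Irf4, the lymphocyte-associated member, was near the detection limit. Its probe at chr13:30858532-30858591 was well above background on 2 of 4 arrays each of DMSO and LPS+DMSO, 1 of 4 of cordycepin and 0 of 4 of LPS+cordycepin. The measured levels were 5.10 to 5.38 in LPS+DMSO and 3.91 to 4.42 in LPS+cordycepin, which do not overlap, as for 22.9% of the genes tested. In cordycepin they were 4.97 to 5.36, also without overlap with LPS+cordycepin, as for 15.4%, and in DMSO 4.89 to 6.34. No fold is given, because the LPS+cordycepin arrays have only a bound. The lowest signal well above background lay between 4.11 and 6.32 on the individual arrays.

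**Figure D3:**
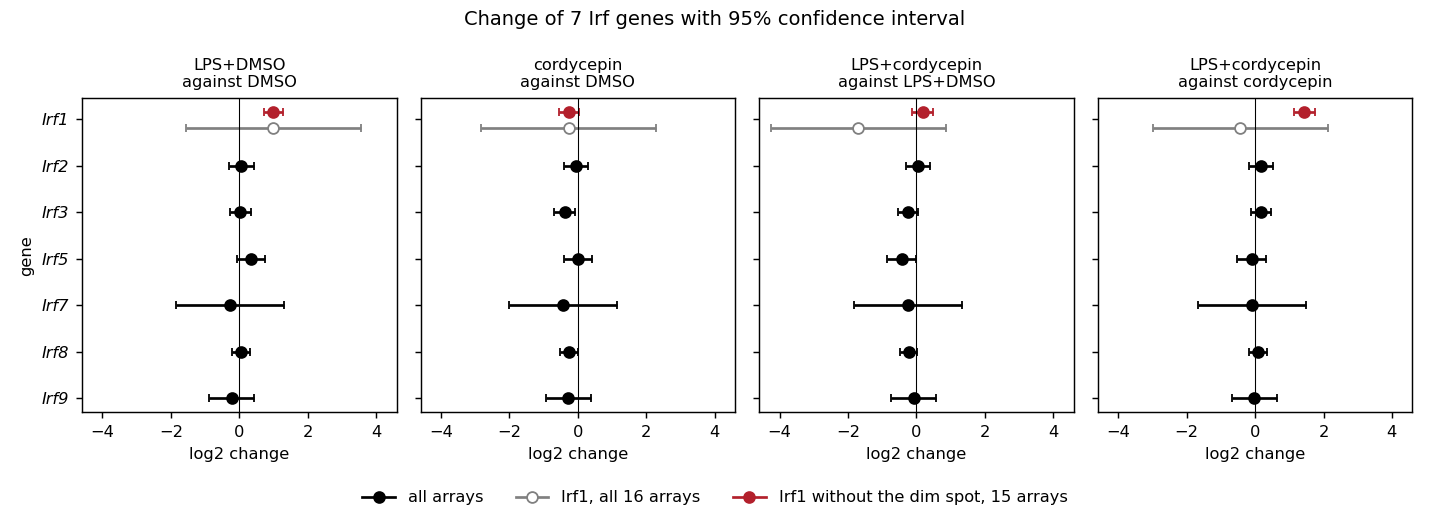
Change (log2) of the 7 tested members with its 95% confidence interval in 4 comparisons, with Irf1 shown for all 16 arrays (grey) and without the dim spot (red). Without the spot Irf1 rises by 1.00 and 1.44 in the 2 LPS comparisons, and the other members lie within 0.44 of 0.

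Irf7 and Irf9, the members tied to the interferon response, separated by slide in every condition. Irf7 (chr7:148450664-148451014, minus strand, a probe whose stated span exceeds its 60 bases) had levels of 9.37, 10.86, 7.14 and 7.34 in DMSO and 9.20, 8.39, 7.64 and 7.73 in cordycepin. In LPS+DMSO they were 9.59, 8.68, 7.62 and 7.71. In LPS+cordycepin they were 9.21, 8.66, 7.64 and 7.15. In every condition replicates 1 and 2 were above replicates 3 and 4, and over all conditions the 8 arrays of slide 1 (8.39 to 10.86) did not overlap with the 8 of slide 2 (7.14 to 7.73). The mean difference between slides was 1.75, and within the conditions it was largest in DMSO (2.87), then 1.54 in LPS+cordycepin, 1.47 in LPS+DMSO and 1.11 in cordycepin.

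Irf9, the DNA-binding subunit of the complex that interferon activates, did the same. Its levels at chr14:56228806-56228865 were 11.96, 12.02, 10.97 and 10.88 in DMSO and 11.59, 11.15, 11.03 and 10.95 in cordycepin. In LPS+DMSO they were 11.86, 11.56, 10.55 and 10.995, and in LPS+cordycepin 11.57, 11.26, 10.89 and 10.90. The arrays of slide 1 (11.15 to 12.02) lay above those of slide 2 (10.55 to 11.03), by 0.72 in the mean and by 0.38 to 1.06 within the conditions.

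Such a separation, higher on slide 1 on all arrays, was seen in 2 of 7 members and in 0.346% of the 15877 genes, and the reverse in 0 members and 0.687% of genes. Irf1 without its dim spot, Irf2, Irf3, Irf5 and Irf8 overlapped between slides, with mean differences of -0.24 to 0.13. A slide holds 2 days, so slide, scan and days cannot be told apart, and an exact permutation of 4 days, 2 on each slide, cannot give a two-sided p below 0.333. No p is given for this reason. Irf7 and Irf9 were also apart, and in the same direction, after quantile normalization, scaling to the median, the 75th percentile over all probes, normexp correction and in the authors' values. With scaling to spiked-in controls they overlapped, with differences of 1.12 and 0.09 where the median of all genes shifted to -0.67.

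The genes most like Irf7 over the 16 arrays, among 11601, were Ifi27 (Pearson r = 0.98), Ifi202b (0.97) and Xaf1 (0.96), and those most like Irf9 were Oas2 (0.97), Phf11d (0.97) and Igtp (0.95). Both members were picked for this after their levels were seen. Slides form separate clusters here, and Irf7 and Irf9 had an r of 0.92 with each other over 16 arrays, 0.84 within the 8 arrays of slide 1 and -0.06 within the 8 of slide 2. Several of these genes are known to respond to interferon, and the listed interferon and IRF3 targets showed the split as well. Of 31 tested, 8 were higher on slide 1 without overlap (Ifi44 by 2.38, Xaf1 by 1.44 and Oas3 by 1.32 were the largest) and 0 were lower, and 30 of 31 had a positive difference, as had 6431 of all 15877 genes. Their median was 0.85, whereas that of all genes was -0.04. With arrays scaled to spiked-in controls 1 of the 31 was apart, and the medians were 0.22 for the list and -0.67 for all genes. Among 26 listed targets of IRF1 and IRF8, 0 were apart and the median was 0.12.

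**Figure D4:**
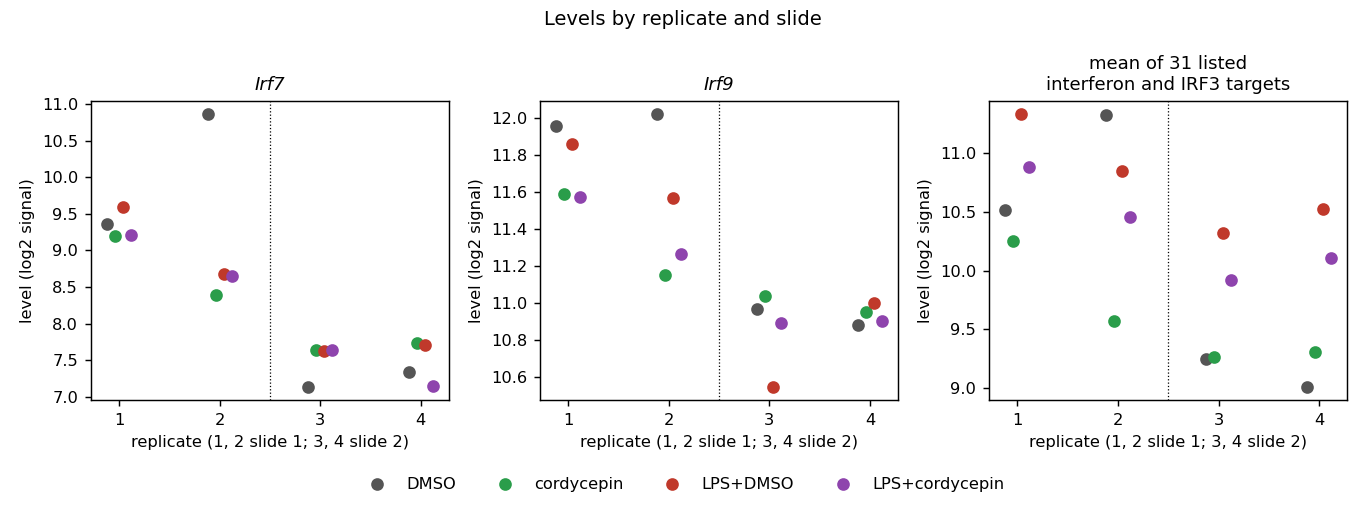
Level (log2 signal) of Irf7 and Irf9, and the mean level of 31 listed interferon and IRF3 targets, by replicate number, with 1 point per array coloured by condition and a dotted line between the slides. For Irf7 and Irf9 every point on slide 1 is above every point on slide 2, and the DMSO array of replicate 2 is the highest for Irf7, at 10.86.

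No treatment effect on Irf7 or Irf9 was called. LPS in DMSO changed Irf7 by -0.28 (SE 0.74, 95% interval -1.86 to 1.30, adjusted p = 0.890), with day values of 0.22, -2.18, 0.48 and 0.36. The DMSO array of replicate 2 makes that estimate negative, and without it the change was 0.45 (SE 0.65), also not called. On that array the mean of the 31 targets was 11.32, against 10.51, 9.25 and 9.01 on the other DMSO arrays and 10.32 to 11.33 in LPS+DMSO. Its Ifnb1 level was 6.40 against 2.37 to 4.85 on the other DMSO arrays, and its Ccl5 level was 13.95 against 11.04 to 11.26. For Irf9 the LPS change in DMSO was -0.21 (SE 0.31, 95% interval -0.87 to 0.44) and that in cordycepin -0.02 (SE 0.31, 95% interval -0.68 to 0.63). Cordycepin changed Irf7 by -0.24 (95% interval -1.81 to 1.34) and Irf9 by -0.08 (95% interval -0.74 to 0.57) in LPS-stimulated cells. Without LPS it changed Irf7 by -0.44 (SE 0.74) and Irf9 by -0.28 (SE 0.31). That Irf7 estimate was 0.29 (SE 0.65) without DMSO replicate 2. For Irf9 the same array was the highest of all, at 12.02. Over 42 settings, arrays left out included, the Irf9 change with cordycepin alone lay between -0.47 and -0.08. The Irf9 change with LPS in DMSO lay between -0.42 and 0.02, and neither was called in any setting. LPS in cordycepin changed Irf7 by -0.08 (SE 0.74).

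The pathway around these factors was described by lists of named genes. Of all genes tested, LPS in DMSO raised 5.14% and lowered 9.8%, cordycepin alone raised 8.23% and lowered 7.55%, LPS+cordycepin was above LPS+DMSO in 10.8% and below it in 8.45%, LPS in cordycepin raised 3.54% and lowered 4.61%, and the interaction was above 0 in 0.283% and below 0 in 0.271%. Upstream, 3 of 15 interferon genes on the array were bright enough to test. Ifnb1, the interferon that IRF3 and NF-kB switch on, had levels of 11.90, 11.54, 11.61 and 11.66 in LPS+DMSO and 10.43, 10.45, 10.32 and 10.32 in LPS+cordycepin. Without LPS it was between 2.37 and 6.40, well above background on 1 of 4 DMSO arrays and 0 of 4 cordycepin arrays. In DMSO, where 1 of 4 arrays measured it above background, it rose by 7.67 (SE 0.65, adjusted p = 6.31e-07), and by 8.47 without DMSO replicate 2, while in cordycepin it rose at least 38.5-fold (adjusted p = 4.29e-06), a bound set by the lowest signal well above background. LPS+cordycepin was below LPS+DMSO on 4 of 4 days without overlap, a difference of -1.30 that was not called (SE 0.65, adjusted p = 0.214). The SD it was tested against is pooled over the 4 conditions, and was 1.97 in DMSO, where Ifnb1 is dim, but 0.16 in LPS+DMSO and 0.07 in LPS+cordycepin. In a limma fit of only these 2 conditions the difference was called (adjusted p = 4.04e-05). Ifna14 rose by 1.79 (SE 0.37, adjusted p = 0.00242) and Ifnab by 1.58 (SE 0.50, adjusted p = 0.0357) in LPS+cordycepin over LPS+DMSO. Both were well above background on 4 of 4 LPS+cordycepin arrays but 2 of 4 LPS+DMSO arrays. They passed the filter only through LPS+cordycepin, where they are highest, so this test does not stand apart from the filter. The count of 2 called here ranged from 0 to 3 over 42 settings, and was 1 without LPS+DMSO replicate 1, 3 or 4 or any single LPS+cordycepin array and 3 without DMSO replicate 2. Interferon alpha genes are near-identical copies whose probes may not tell them apart.

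Of 25 tested sensors, adaptors and kinases that activate IRFs, LPS in DMSO raised 5 and lowered 2, with a list median of 0.04 against -0.04 over all genes. The 5 were Ikbke, a kinase of IRF3 that went from 8.67 to 9.19 up to 10.34 to 10.59 (SE of the change 0.14), Ticam1 (1.49, SE 0.11), which encodes TRIF, the RNA sensor Ifih1 (1.46, SE 0.34), the kinase scaffold Tank (1.33, SE 0.11) and the LPS co-receptor Cd14 (1.12, SE 0.11). Tlr4 changed by -0.75 (SE 0.10) and the adaptor Mavs by -0.45 (SE 0.12). LPS+cordycepin was lower than LPS+DMSO in 6 of the 25 and higher in 0, with a median of -0.26 against 0.03. The differences were -1.58 for Ifih1 (adjusted p = 0.00271), -1.13 for Ticam1 (adjusted p = 2.01e-06), -1.07 for Ikbke (adjusted p = 2.49e-05), -0.96 for Tank (adjusted p = 7.94e-06), -0.49 for Tlr7 and -0.44 for Cd14. The LPS rise itself was smaller with cordycepin for Ikbke (interaction -1.16, SE 0.19, adjusted p = 0.0111) and Tank (-0.91, SE 0.15, adjusted p = 0.0113), and these were the 2 of 25 called for the interaction. That count was 0 to 2 over 39 settings, and 1 with normexp or the authors' value table. It was 0 when dim probes were not filtered and without replicate 1, 3 or 4. With arrays scaled to spiked-in controls it was also 0, against 12 of all genes.

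Cordycepin alone lowered 4 of the 25, and raised 0. The count of 4 became 0 with arrays scaled to spiked-in controls, 2 without replicate 3 and 6 without DMSO replicate 2. They were Ticam1 (-0.83), Mavs (-0.62), Tlr7 (-0.44) and Tlr4 (-0.39). For Ticam1 the levels were 9.93, 9.61, 9.63 and 9.96 in DMSO and 8.87, 8.92, 9.08 and 8.95 in cordycepin, without overlap. In cordycepin LPS raised 3 of the 25, Ticam1 by 1.18, Cd14 by 0.50 and Tank by 0.43, and Tlr4 fell by 0.54. These 4 also became 0 with spiked-in scaling.

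Among 16 interferon receptor and JAK-STAT genes, Socs3, a feedback inhibitor, rose by 2.94 (SE 0.23) with LPS in DMSO and by 2.45 in cordycepin. Stat2, the partner of IRF9, fell by 1.27 (SE 0.19, adjusted p = 1.72e-04) in DMSO and also fell in cordycepin (adjusted p = 0.00102). Its levels were 10.82 to 11.77 in DMSO and 9.60 to 10.05 in LPS+DMSO, 10.51 to 10.87 in cordycepin and 9.34 to 9.85 in LPS+cordycepin. Socs1, another such inhibitor, was lower with cordycepin alone (-1.58, adjusted p = 6.31e-04) and in LPS-stimulated cells (-0.92, adjusted p = 0.0264). It rose with LPS in cordycepin by 1.47. Ifnar1, a chain of the interferon receptor, was higher with cordycepin, by 0.88 without and 0.75 with LPS, and Socs3 was lower with LPS+cordycepin than with LPS+DMSO (-0.73). The 3 called between the LPS conditions became 1 without LPS+DMSO replicate 2 or 4 or LPS+cordycepin replicate 2, and 0 with spiked-in scaling. These 4 genes are all that were called in this list, whose medians in the 4 comparisons lay between -0.06 and 0.03.

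Of 19 partners and regulators of IRF proteins, LPS in DMSO raised the NF-kB subunits Rela (0.73, SE 0.08) and Nfkb1 (0.61, SE 0.13) and lowered Irf2bp2 (-1.16, SE 0.15), whose protein binds IRF2, and Batf2 (-0.62, SE 0.15). LPS+cordycepin was below LPS+DMSO in Irf2bpl (-0.58) and Rela (-0.55), and above it in 0 of 19. LPS in cordycepin raised Rela (0.34) and lowered Irf2bp2 (-0.69), and cordycepin alone lowered Batf2 (-0.66). With spiked-in scaling 1 of the 19 was called for LPS in DMSO and 0 in the other comparisons. The 2 called between the LPS conditions became 1 without LPS+DMSO replicate 2 or 3 or LPS+cordycepin replicate 4, the 2 for LPS in cordycepin became 1 without replicate 4 of cordycepin or LPS+cordycepin, and the 1 for cordycepin alone became 2 without DMSO replicate 4.

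Of 31 tested targets of interferon and IRF3, LPS in DMSO raised 8 and lowered 0. Cxcl10, a chemokine, rose by 7.50 (SE 0.42), Rsad2, which encodes viperin, by 2.95 (SE 0.62), the ubiquitin-like Isg15 by 2.80 (SE 0.59), Oasl1 by 2.73 (SE 0.39) and the chemokine Ccl5 by 1.75 (SE 0.49). The list's median was 0.06, and 0.60 without DMSO replicate 2. Without that array Rsad2 rose by 3.71, Isg15 by 3.43 and Ccl5 by 2.45. Without DMSO replicate 3 or 4, or LPS+DMSO replicate 1 or 4, 5 of the 31 were called instead of 8. LPS+cordycepin was below LPS+DMSO in 3 of the 31, Rsad2 (-2.54, adjusted p = 0.00817), Ifih1 (-1.58) and Oasl1 (-1.21, adjusted p = 0.0409), and above it in Isg20 (2.89, adjusted p = 2.86e-05) and Gbp5 (0.52). For Rsad2 the levels were 12.82, 12.17, 12.00 and 12.31 in LPS+DMSO and 10.29, 9.75, 9.38 and 9.72 in LPS+cordycepin, without overlap. Without the DMSO array of replicate 2, which enters only through the shared spread, 9 of the 31 were called in this comparison instead of 5, and without LPS+DMSO replicate 1, 2 or 3, or LPS+cordycepin replicate 3 or 4, 3 were.

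With LPS in cordycepin, 6 of these 31 rose and 0 fell, with Cxcl10 (6.76), Gbp2 (2.53), Isg15 (2.37), Isg20 (2.04) and Oasl1 (1.82) among them. Gbp2 was well above background on 1 of 4 cordycepin and 1 of 4 DMSO arrays. It passed the filter only through LPS+cordycepin, where it is highest, so its rise there does not stand apart from the filter. Without DMSO replicate 2, 9 of the 31 were called. Cordycepin alone raised Isg20 (1.17) and lowered Adar (-0.47), and its list median was -0.47 against 0.04 over all genes. Without DMSO replicate 2 that median was -0.03. The count of 2 rests on few arrays, with 0 to 2 called when 1 array was left out. It was 0 without cordycepin replicate 2, 3 or 4 or LPS+DMSO replicate 2, and 1 without any single DMSO array, cordycepin replicate 1, LPS+DMSO replicate 4 or LPS+cordycepin replicate 2, 3 or 4. Ifih1 is also among the sensors, and Gbp2 among the targets of IRF1 and IRF8.

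Of 26 tested targets of IRF1 and IRF8, LPS in DMSO raised 4, Ptgs2 by 3.17 (SE 0.17), Cd40 by 1.81 (SE 0.52), Gbp2 by 1.69 (SE 0.50) and Nos2 by 0.86 (SE 0.28, adjusted p = 0.0481), and lowered 0. Gbp2 was well above background on 1 of 4 DMSO and 3 of 4 LPS+DMSO arrays, and without DMSO replicate 2 Cd40 rose by 2.55. The count of 4 ranged from 1 to 6 over 42 settings. It was 1 with normexp, without DMSO replicate 3 or 4 and without LPS+DMSO replicate 1 or 4, and 2 without DMSO replicate 1 or LPS+DMSO replicate 3. With LPS+cordycepin, 4 of the 26 were below LPS+DMSO and 0 were above. They were Ptgs2, the inducible cyclooxygenase (-1.48, adjusted p = 8.23e-06), Nos2, the inducible nitric oxide synthase (-1.06, adjusted p = 0.0120), Il15ra (-0.48) and Nlrc5 (-0.39), and Ptgs2 and Nos2 had no overlap. The levels of Nos2 were 9.10, 8.99, 9.07 and 10.22 in LPS+DMSO and 8.37, 7.98, 8.20 and 8.58 in LPS+cordycepin. LPS in cordycepin raised Gbp2 by 2.53 and Ptgs2 by 2.30. Gbp2 passed the filter only through LPS+cordycepin, where it is highest, so that rise does not stand apart from the filter. Cordycepin alone lowered Ptgs2 (-0.61) and Nlrc5 (-0.43). Those last 2 became 0 without cordycepin replicate 1 or 4 or with spiked-in scaling, and 1 without DMSO replicate 1 or 2. The medians of this list lay between -0.02 and 0.01 in these comparisons. The 2 LPS comparisons and the 2 cordycepin comparisons share arrays with each other, and their values stand side by side without a test of their likeness.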

How the data were processed

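Total RNA of 16 RAW264.7 cultures was hybridised, 1 array per culture, and each culture's condition and replicate number are those in its label. The authors deposited scanner files with intensity per spot from Agilent Feature Extraction (version 10.7.3.1 in the file headers, 10.10.1.1 in the submitters' processing notes), where the processed intensity is background-subtracted and detrended but not normalized between arrays, and a table of log2 values deposited after a normalization between arrays that is not given in the sources used here. The submitters' notes name limma. Probe coordinates are those of the files (mm9).

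The processed intensity was log2-transformed, spots marked as outliers were left out, and each array was set to the 75th percentile over the 18064 probes that every array detected well above background. For testing, 21597 probes detected this way throughout the 4 arrays of some condition were kept, and the brightest stood for its gene. Of 55681 probes, 27656 were named by accession, 3401 by symbol and 321 by synonym, and 24303 kept the file's name. The 4 condition means were fitted with limma 3.58.1 in R 4.3.3, and p was adjusted by Benjamini-Hochberg over 15877 genes. The interaction is the LPS change with cordycepin minus that with DMSO. Intervals are 95% intervals of the fit, and the number of arrays limits precision. Probe, spot and slide summaries used Python 3.11.15 with pandas 2.3.3 and matplotlib 3.10.9.

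Named are all 8 members, list genes called at 2-fold (up to 5 per list and comparison) or making up small counts, and the 3 genes with the highest Pearson r to a called member. As no member was called with all spots used, the last was applied to Irf1 without its spot and to Irf7 and Irf9, picked after their values were seen. Members, lists and tests were chosen with earlier results of these data known. The replicate number is the culture day per the labels. Deviations from condition means correlated by 0.20 on average (-0.06 to 0.44) within a number, by 0.18 between numbers of a slide and by -0.19 across slides, and the block is given where it changes a call. The methods' t-test is the Student t test, which the study names among its general statistics without tying it to the arrays. It was run on the same values. Alternatives covered scaling, background correction, filters, probe choice, blocks and arrays left out, and those on the dim spot were added after the data were seen. P-values measure the spread between these cultures. The fit of LPS+DMSO against DMSO was tried on simulated data with independent noise. Slide or day effects, outlying arrays and a dim spot were not simulated.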

Additional observations from a re-analysis of the deposited data

Results flagged for a closer look

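In 5 of 36 groups of 4 arrays, 1 array lay far from the other 3 by Dixon's gap test, where chance gives about 1 in 20 groups. These were Irf1 at 5.19 in LPS+cordycepin replicate 3 (the dim spot), Irf2 at 8.04 in DMSO replicate 2, Irf4 at 5.10 in LPS+DMSO replicate 1, Irf5 at 12.14 in cordycepin replicate 3 and Irf8 at 12.74 in DMSO replicate 1, all log2 levels.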

How the results depend on the processing

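Leaving out the dim Irf1 spot was chosen after seeing the data, as was leaving out all spots with an outlying local background. The Irf1 change between LPS+cordycepin and cordycepin reversed to 1.44 without the spot, 1.43 with the replicate block added, 1.42 with the slide block added, 1.44 without all such spots, and 1.44 and 1.45 without LPS+cordycepin replicate 3 or all of replicate 3. Irf1 then made the count of called members 1 there and in LPS+DMSO against DMSO under each of these settings. Without the spot alone, 8.16% and 14.9% of all genes were called in these comparisons. For LPS+DMSO against DMSO the count was also 1 with a fit of only the groups compared and with the methods' t-test before and after adjustment. Before adjustment that t-test passed 23.2% of all genes. For cordycepin against DMSO the count was 2 with the replicate block, with or without the dim spot, and with the methods' t-test before adjustment. There the t-test passed 25.4% of all genes, and the main fit called 15.8%. The count was 1 with the 75th percentile over all probes, where 2623 of 15877 genes were called. It was also 1 with the slide as a block, with or without the spot. For LPS+cordycepin against LPS+DMSO it was 1 with no filter on dim probes (Irf4), where the main fit called 19.2% of genes. With 1 array or 1 replicate left out, that Irf1 change ranged from -1.12 (without LPS+cordycepin replicate 4) to 1.45, and counts ranged from 0 to 1, from 0 to 1, from 0 to 0 and from 0 to 1 in LPS+DMSO against DMSO, cordycepin against DMSO, LPS+cordycepin against LPS+DMSO and LPS+cordycepin against cordycepin. The replicate number as a block changed no other call of a member. For the interaction the count was 0 in every setting run. Irf1 was not tested under the filter on all arrays. Scaling to spiked-in controls moved the median of all genes in LPS+cordycepin against cordycepin from -0.05 to -0.36, and the share of called genes that were higher with cordycepin alone from 52.2% to 89.8%. The cause was not tested. Dim probes such as Irf4 and the other Irf1 probe have only bounds.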
